A study of Mus musculus with 18 samples.

Results

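The lysosome was followed here through 41 genes that encode its membrane proteins, its degradative enzymes, the proton pump that acidifies it and Tfeb, a transcription factor of lysosomal genes. The genes were taken by symbol from tables of 25124 genes, by a rule that used no measured value. The list was nevertheless chosen with earlier results of these data known. All 41 genes passed the filter on low counts in every comparison. They comprised 6 membrane proteins, 11 glycosidases, 5 sulfatases, 7 proteins that handle lipids, 2 proteases, 9 proton pump genes and Tfeb. RNA was measured in inguinal white fat (iWAT), epididymal white fat (eWAT) and brown fat (BAT) of wildtype (WT) mice and Caspase6 knockout (C6KO) mice, with 3 libraries per depot and genotype and 18 in all. Every animal was a male on the C57BL/6J background and ate a high fat diet (HFD) with 60% of its calories from fat for 12 weeks, begun at 10 to 14 weeks of age, so that no lean group was part of the comparison. The knockout was carried by the whole animal from conception, so adipocytes, macrophages and all other cells of a depot were knockout alike. Intercrossed heterozygotes gave the WT and C6KO mice, and the labels do not say which libraries of different depots came from the same mouse.

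Lysosomes break down material delivered by endocytosis, phagocytosis and autophagy with hydrolases that work at acidic pH, which the vacuolar ATPase maintains by pumping protons across the membrane. In fat, macrophages that clear lipid and dead adipocytes are rich in lysosomes, and adipocytes use them as well. TFEB binds the E-box CACGTG in the promoters of many lysosomal genes, and the longer form of this element is known as the CLEAR motif.

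Libraries held 16506034 to 19139694 counts in the white depots and 7803108 to 12428683 in BAT, so that counting error was larger in BAT. Casp6, the targeted gene, separated the genotypes in each depot, at 3.32 to 8.09 CPM (counts scaled to library size) in C6KO against 11.9 to 21.2 CPM in WT. One C6KO library of iWAT (replicate 3) lay nearer to WT than the other 2, and WT replicate 2 of BAT held 35664 CPM of 10 skeletal muscle markers where the other BAT libraries held 46.4 to 7201 CPM. The 51 genes of chromosome Y had 0 counts in all 12 iWAT and BAT libraries and 4254 to 4775 counts in each eWAT library, although all mice were male. Chromosome Y was thus not treated alike in the 3 tables, and a difference in how tables were made cannot be told apart from the depot in a comparison between eWAT and another depot. None of the 41 genes lies on chromosome Y, and all 41 were counted on the same transcript in the 3 tables.

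Lysosomal transcripts were most abundant in eWAT. The 41 genes together took 1.93% to 2.10% of all counts in WT eWAT, 1.06% to 1.15% in WT iWAT and 0.627% to 0.726% in WT BAT. Their summed level was 18118, 17048 and 18647 CPM in the 3 WT libraries of eWAT, 10641, 10529.9 and 11412 CPM in those of iWAT and 8269, 6671 and 7721 CPM in those of BAT, so the 3 depots did not overlap. In C6KO the sums were 16561, 17411 and 16133 CPM in eWAT, 7082, 6929 and 9826 CPM in iWAT and 7579, 7807 and 7130.1 CPM in BAT. All C6KO iWAT libraries lay below all WT iWAT libraries, whereas in eWAT and BAT the genotypes overlapped. In whole fat, fewer cells of a lysosome-rich type and less RNA per cell cannot be told apart.

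Psap, the precursor of the saposins that help enzymes reach membrane lipids, made up 28.3% to 36.8% of the summed CPM in every library. Per kilobase of transcript it stood first in each WT depot, at 2394 ± 117 CPM per kb (SD, n = 3) in eWAT, 1372 ± 80.9 in iWAT and 891 ± 76.1 in BAT. The next gene differed by depot on this scale. It was Cd68, a glycoprotein of macrophage lysosomes, in eWAT (694 ± 54.1 CPM per kb) and Lamp1, an abundant glycoprotein of the lysosomal membrane, in iWAT (414 ± 14.1) and BAT (405 ± 68.5). At the low end stood Idua in iWAT (7.81 ± 0.842 CPM per kb), Sgsh in eWAT (9.24 ± 1.22) and Galns in BAT (2.86 ± 0.809), which all degrade glycosaminoglycans.

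**Figure D1:**
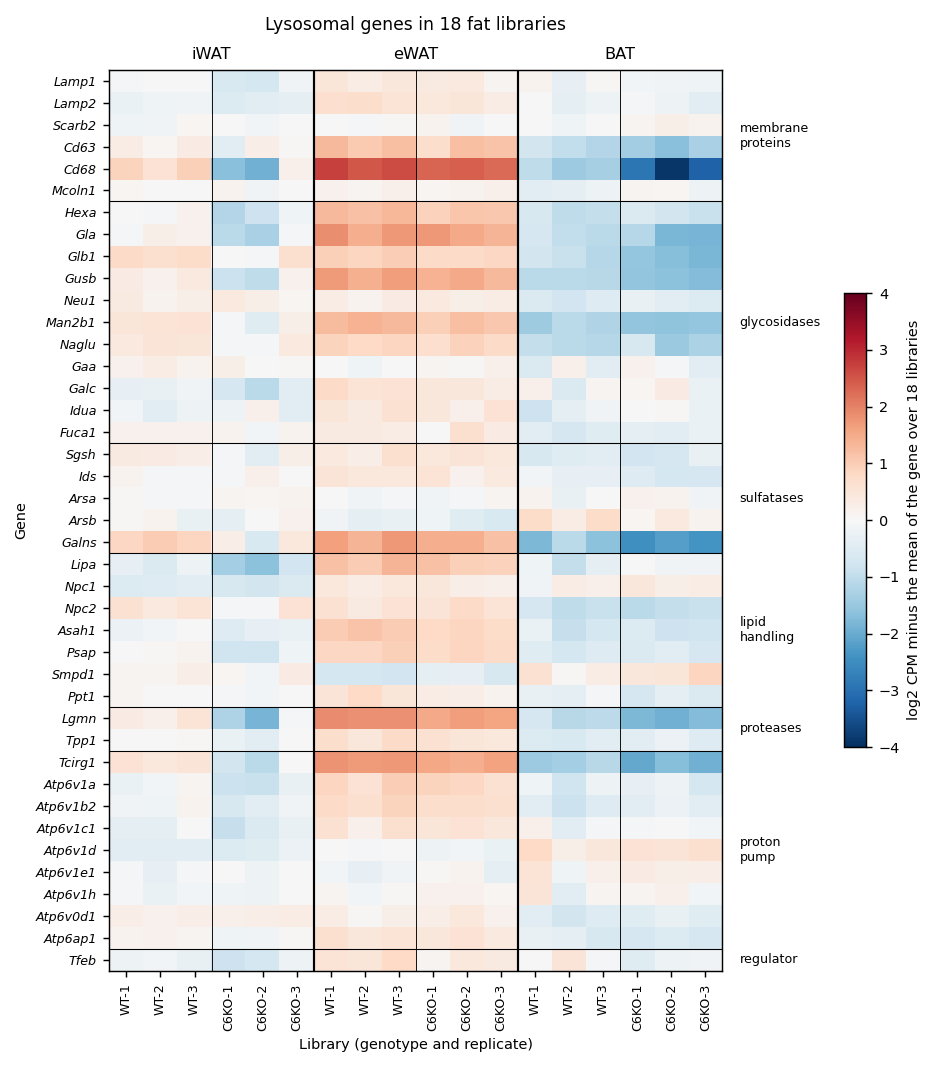
Each row is 1 of the 41 lysosomal genes, grouped by role, and each column 1 of the 18 libraries; the colour gives log2 CPM minus the mean of that gene over all libraries. The eWAT columns are red for most genes, the BAT columns blue, and C6KO replicates 1 and 2 of iWAT are bluer than replicate 3.

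How lysosomal content differs between fat depots of obese WT mice was asked first, in 1 edgeR fit of all 18 libraries where a called gene had a p below 0.05 after Benjamini-Hochberg adjustment and moved by 1.5-fold or more. Against iWAT, eWAT had 21 of the 41 genes called higher and 1 called lower, with 12.8% and 12.9% of the 15866 genes tested called in these directions. The median log2 fold change was 0.62 over the 41 genes and 0.005 over all genes. Called genes came from every role: 3 of 6 membrane proteins, 6 of 11 glycosidases, 1 of 5 sulfatases, 4 of 7 lipid-handling genes, both proteases, 4 of 9 proton pump genes and Tfeb. Mean CPM was highest in eWAT for 31 genes, in iWAT for 5 (Neu1, Gaa, Arsa, Npc2 and Atp6v0d1) and in BAT for 5 (Arsb, Smpd1, Atp6v1d, Atp6v1e1 and Atp6v1h).

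Cd68 had 925, 791 and 865 CPM in the WT libraries of eWAT and 261, 210.2 and 270.1 CPM in those of iWAT. Its log2 fold change was 1.80 (SE 0.42, n = 3 per group, edgeR adjusted p = 0.00413), the largest estimate of the 41 genes, and the depots did not overlap. Gla, the alpha-galactosidase that removes galactose from glycolipids, followed with 82.7, 63.2 and 76.5 CPM in eWAT, 21.9, 26.8 and 25.5 CPM in iWAT and a log2 fold change of 1.58 (SE 0.25, n = 3 per group, edgeR adjusted p = 2.31e-04). Lipa, the lysosomal acid lipase that hydrolyses cholesteryl esters and triglycerides, stood at 988, 888 and 1117 CPM in eWAT and 347, 293 and 382 CPM in iWAT. That made it 2.92-fold higher in eWAT and gave 1.55 (SE 0.22, n = 3 per group, edgeR adjusted p = 7.44e-05) on the log2 scale. Tfeb itself was 1.76-fold higher there, at 43.1, 41.1 and 51.6 CPM against 25.6, 27.3 and 24.1 CPM, with a log2 fold change of 0.82 (SE 0.18, n = 3 per group, edgeR adjusted p = 0.00237).

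Smpd1, the acid sphingomyelinase that cleaves sphingomyelin to ceramide, was the exception. It had 69.4, 69.6 and 67.7 CPM in WT eWAT, 122, 123 and 137 CPM in WT iWAT and 174, 118 and 139 CPM in WT BAT. Its eWAT libraries were the lowest of the 3 depots without overlap, and the log2 fold change of eWAT against iWAT was -0.89 (SE 0.16, n = 3 per group, edgeR adjusted p = 5.01e-04). Asah1, the acid ceramidase that acts on the product of Smpd1, had the opposite pattern, at 245, 266 and 244 CPM in eWAT and 104, 111 and 121 CPM in iWAT, a log2 fold change of 1.17 (SE 0.14, n = 3 per group, edgeR adjusted p = 3.15e-05).

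BAT had the least lysosomal RNA. Against iWAT, 17 of the 41 genes were called lower in BAT and 3 higher, beside 18.7% and 20.1% of all genes, and the median log2 fold change was -0.50 over the 41 genes and 0.011 over all genes. Against eWAT, 28 were called lower and 2 higher, beside 23.6% and 25.0% of all genes, with a median of -0.90 over the 41 genes and 0.026 over all genes. Lower in BAT than in iWAT were 8 of 11 glycosidases, 2 of 6 membrane proteins, 2 of 5 sulfatases, 2 of 7 lipid-handling genes, Lgmn and 2 of 9 proton pump genes.

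Galns, a sulfatase of keratan and chondroitin sulfate, had only 5.84, 9.72 and 6.50 CPM in WT BAT against 36.5, 41.3 and 36.7 CPM in iWAT and 63.8, 52.7 and 67.4 CPM in eWAT. BAT was below both white depots without overlap, with log2 fold changes of -2.36 (SE 0.23, n = 3 per group, edgeR adjusted p = 5.26e-07) against iWAT and -3.04 (SE 0.24, n = 3 per group, edgeR adjusted p = 1.57e-08) against eWAT. Cd68 stood at 69.2, 50.9 and 55.5 CPM in BAT, 4.23-fold below iWAT (log2 fold change -2.08, SE 0.42, n = 3 per group, edgeR adjusted p = 9.94e-04) and 14.7-fold below eWAT (log2 fold change -3.88, SE 0.45, n = 3 per group, edgeR adjusted p = 3.53e-06). Tcirg1, the a3 subunit of the proton pump that is known from osteoclasts and immune cells, had 40.3, 42.8 and 51.0 CPM in BAT, 162, 148 and 157 CPM in iWAT and 383, 355 and 367 CPM in eWAT. Its log2 fold changes were -1.80 (SE 0.21, n = 3 per group, edgeR adjusted p = 2.45e-06) against iWAT and -3.04 (SE 0.21, n = 3 per group, edgeR adjusted p = 5.13e-09) against eWAT, again without overlap.

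The proton pump did not move as a block between depots. Tcirg1 and Atp6v0d1, a subunit of the membrane sector, were called lower in BAT than in iWAT, while Atp6v1d, a subunit of the central stalk, was called higher. Atp6v1d had 111, 76.3 and 87.7 CPM in BAT, 48.3, 48.6 and 47.6 CPM in iWAT and 64.7, 60.6 and 63.2 CPM in eWAT, and its log2 fold change of BAT against iWAT was 0.93 (SE 0.13, n = 3 per group, edgeR adjusted p = 1.49e-05). Atp6v1e1 and Atp6v1h, 2 further subunits of the cytosolic sector, had log2 estimates of 0.37 (SE 0.17) and 0.26 (SE 0.17) that were not called. The other genes called higher in BAT than in iWAT were Arsb, a sulfatase of dermatan sulfate, at 0.62 (SE 0.17, edgeR adjusted p = 0.00623), and Npc1, the cholesterol exporter, at 0.63 (SE 0.12, edgeR adjusted p = 4.32e-04). Arsb and Npc1 fell short of 1.5-fold, and only Atp6v1d was called, with scaling to total counts or with genes of at least 10 counts in every library. Of the exon bases of Arsb, 48.2% are shared with a noncoding gene on the other strand, and the sources used here do not say whether reads were counted by strand. A second noncoding gene shared 11.5% of Arsb, and other overlaps above 5% were 21.9% of Sgsh, 19.8% of Arsa, 8.5% of Galc, 7.9% of Lamp1, 6.9% of Glb1 and 5.8% of Atp6v1h.

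**Figure D2:**
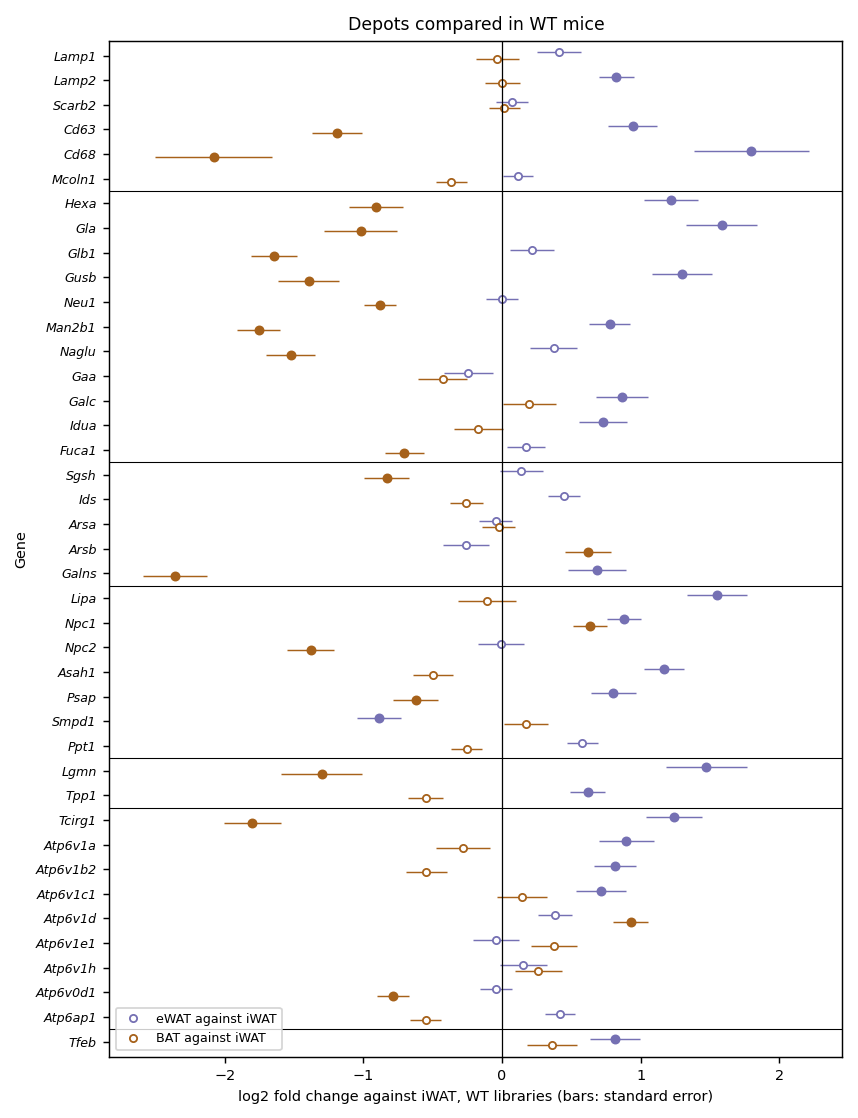
Points give the log2 fold change of eWAT (violet) and BAT (brown) against iWAT in WT libraries for each of the 41 genes, with bars of 1 standard error; filled points were called. Most violet points lie right of 0 and most brown points left of it, with Smpd1 (eWAT) and Arsb, Npc1 and Atp6v1d (BAT) called in the other direction.

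The depots also differed in macrophage markers, which moved with these genes. A list of 20 markers, none of them among the 41 genes, summed to 7813, 10152 and 7611 CPM in WT eWAT, 2278, 2535 and 2645 CPM in WT iWAT and 1355, 1024 and 1109 CPM in WT BAT, with none of the 20 at 0 counts. All 20 had a higher estimate in eWAT than in iWAT, 19 of them called (12.8% of all genes), and their median log2 fold change was 1.89. The order of the depots was therefore the same as for the summed lysosomal genes. It was not particular to macrophages. The 8 progenitor and fibroblast markers summed to 8445, 6634 and 7236 CPM in WT eWAT, 4937, 4905 and 4984 CPM in WT iWAT and 1536, 1879 and 1302 CPM in WT BAT. Sums of the adipocyte and endothelial markers were instead lowest in WT eWAT. The part of any cell type in the depot differences was not tested.

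Since TFEB is a known regulator of lysosomal genes, the promoters given by RefSeq on GRCm38.p6 (mm10) were read for the core of its binding element, to show which of the 41 genes carry it. A promoter was taken as 250 bases before to 50 bases after the start site, and 35 of the 41 genes had an entry. The E-box CACGTG, which reads the same on both strands, was in 11 of the 35 (31.4%) and in 8.09% of all 27025 genes with an entry. The form TCACGTG, searched on both strands and containing the former, was in the same 11 genes (31.4%) and in 4.29% of all genes. The palindrome TCACGTGA was in 4 of the 35 (11.4%) and in 1.13% of all genes, again on either strand. The longest form searched, of 10 bases and containing TCACGTGA, was in 0 of the 35 (0.0%) and in 0.37% of all genes. The share was higher among the 35 genes for the 3 shorter forms, which are nested and so are not separate results. At 0.37% of all genes, the longest form is too rare for its 0 among 35 genes to decide anything. The promoters of the 35 genes had a median GC content of 56.3% where all promoters had 52.7%, and a match marks letters and not binding.

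By role, TCACGTG was found in 2 of 6 membrane proteins (Lamp1 and Mcoln1), 4 of 11 glycosidases (Gla, Glb1, Naglu and Gaa), 2 of 4 sulfatases (Sgsh and Arsa), 1 of 2 proteases (Lgmn) and 2 of 6 proton pump genes (Atp6v1a and Atp6v0d1) with an entry. None of the 5 lipid-handling genes with an entry, nor Tfeb, had it in this window. Lamp1 carried 4 matches within the 72 bases before its start site, the most of any of the 35 genes with an entry. Its stretch and the windows of the 4 genes with the palindrome, together with that of Lgmn, the gene among the 11 with the largest C6KO difference, are given 5′ to 3′ on the strand of the gene, with every TCACGTG or its reverse complement in capitals.

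Stretch before the Lamp1 start and first matches of 5 other genes, in GRCm38.p6 coordinates.
Lamp1 (chr8:13159089-13159160, plus strand): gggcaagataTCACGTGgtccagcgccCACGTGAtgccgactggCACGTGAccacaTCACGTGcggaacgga
Mcoln1 (chr8:3500463-3500490, plus strand): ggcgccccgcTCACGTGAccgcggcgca
Gla (chrX:134601216-134601243, minus strand): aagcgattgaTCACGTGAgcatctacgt
Atp6v1a (chr16:44139374-44139401, minus strand): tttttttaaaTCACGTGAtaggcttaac
Atp6v0d1 (chr8:105566051-105566078, minus strand): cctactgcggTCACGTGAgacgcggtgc
Lgmn (chr12:102439126-102439152, minus strand): ggaatgtctgTCACGTGgtccatttta

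The matches began 46 bases before the start in Mcoln1, a calcium channel of the lysosomal membrane, 132 before it in Atp6v1a, the catalytic subunit of the pump, and 4 before it in Atp6v0d1. Gla had matches 228 and 195 bases before its start. For 10 of the 11 genes the RefSeq start was that of the counted transcript, whereas for Lgmn it lay 721 bases downstream. The 11 genes with the motif had a median log2 fold change of 0.22 in eWAT against iWAT and -0.79 in BAT against iWAT, and the 24 without it medians of 0.67 and -0.40. For C6KO against WT the medians were -0.39 with and -0.24 without the motif in iWAT. The same pair was -0.031 and -0.13 for eWAT, and -0.030 and -0.008 for BAT. The ranges of the genes with and without the motif overlapped in each of these comparisons.

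The main question of the study was what loss of caspase-6 does to obese fat. In iWAT, lysosomal genes stood lower in C6KO, but none of the 41 passed the adjusted threshold with edgeR. Casp6, the targeted gene, did not pass it there either (edgeR adjusted p = 0.0751). It also fell short in BAT (edgeR adjusted p = 0.0671) and passed in eWAT (edgeR adjusted p = 0.0132). Of the 41 genes, 33 had a lower estimate in C6KO, beside 46.2% of the 14533 genes tested, and the median log2 fold change was -0.26 over the 41 genes and 0.027 over all genes. With edgeR 0 of 41 were called in either direction (0.0206% of all genes were called lower and 0.00688% higher), while 16 were lower at an unadjusted p below 0.05 (9.29% of all genes) and 0 higher (7.25%). In 20 genes all C6KO libraries lay below all WT libraries, as in 12.3% of all genes, and in 1 gene, Arsa, above them (10.9%). DESeq2 called 5 lower (3.53% of the genes it tested), namely Tcirg1, Lipa, Man2b1, Galns and Psap, and 0 higher (1.18%).

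Tcirg1 (mm10 chr19:3896050-3906983, minus strand) had 162, 148 and 157 CPM in the WT libraries and 65.4, 51.5 and 112 CPM in the C6KO libraries of iWAT. All C6KO values lay below WT, with a log2 fold change of -1.03 (SE 0.26, n = 3 per group, edgeR adjusted p = 0.165), the smallest p of the 41 genes. Lipa (chr19:34492316-34527474, minus strand) stood at 347, 293 and 382 CPM in WT and 170.2, 141 and 257 CPM in C6KO, without overlap, a log2 fold change of -0.85 (SE 0.22, n = 3 per group, edgeR adjusted p = 0.165). Man2b1, the alpha-mannosidase that trims N-glycans, had 286, 299.9 and 309 CPM in WT and 200.5, 146 and 241 CPM in C6KO, with a log2 fold change of -0.60 (SE 0.18, n = 3 per group, edgeR adjusted p = 0.183). In each of these genes C6KO replicate 3 was the highest C6KO library and lay closest to WT.

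Cd68 gave the largest estimate and the widest spread. Its level was 261, 210.2 and 270.1 CPM in WT iWAT and 43.8, 36.9 and 162 CPM in C6KO iWAT, with a log2 fold change of -1.61 (SE 0.56, n = 3 per group, edgeR adjusted p = 0.241). Lgmn, the asparaginyl endopeptidase that activates other lysosomal enzymes, had 289, 266 and 339 CPM in WT and 97.3, 63.4 and 216 CPM in C6KO, with a log2 fold change of -1.25 (SE 0.43, n = 3 per group, edgeR adjusted p = 0.236). Both genes separated the genotypes, and both had a C6KO replicate 3 that was over 2 times the other C6KO libraries. Lamp1 had 884, 937 and 939.9 CPM in WT and 598, 568 and 833 CPM in C6KO, a log2 fold change of -0.46 (SE 0.17, n = 3 per group, edgeR adjusted p = 0.24), again without overlap. Gaa, the enzyme of lysosomal glycogen breakdown, had 184, 199 and 178 CPM in WT and 191, 167 and 169 CPM in C6KO, which overlapped, and Tfeb had 25.6, 27.3 and 24.1 CPM against 16.71, 18.01 and 25.3 CPM. The estimates were -0.084 (SE 0.12) for Gaa and -0.35 (SE 0.18) for Tfeb.

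By role, the estimate was lower in C6KO iWAT for 5 of 6 membrane proteins, 10 of 11 glycosidases, 3 of 5 sulfatases, 7 of 7 lipid-handling genes, both proteases, 5 of 9 proton pump genes and Tfeb, with medians from -0.74 for the proteases to -0.029 for the sulfatases. Within the pump, Tcirg1 and Atp6v1a (log2 fold change -0.58, SE 0.18) were the lowest, and Atp6v1d, Atp6v1e1, Atp6v1h and Atp6v0d1 lay between 0.012 and 0.079. The highest estimate was that of Arsa, a sulfatase of sulfatides, at 0.13 (SE 0.10).

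The iWAT result turned on 1 library. The median difference from the WT mean over the 41 genes was -0.41 and -0.34 (log2) in C6KO replicates 1 and 2 and -0.096 in replicate 3. Without replicate 3, 15 of the 41 genes were called lower and 0 higher, beside 6.43% and 2.21% of all genes, with a median log2 fold change of -0.36. They were Lamp1, Cd68, Hexa, Gla, Glb1, Gusb, Man2b1, Galc, Galns, Lipa, Npc2, Psap, Lgmn, Tcirg1 and Atp6v1a. By edgeR, Cd68 then had a log2 fold change of -2.63 (SE 0.17, adjusted p = 1.37e-04) and Lgmn of -1.90 (SE 0.21, adjusted p = 0.00116). Replicate 3 is set apart by the values of these same genes, and leaving it out narrows the C6KO spread. The calls without it show how far the result depends on that library and are no evidence for a genotype effect. Leaving out C6KO replicate 1 or 2 instead gave 0 calls in each case, beside 0.0202% of all genes called lower and 0.00673% higher. The same library held 1730.0 CPM of the macrophage markers, where the other C6KO libraries held 646 and 686 CPM and WT 2278, 2535 and 2645 CPM. It also stood apart in hepatocyte markers, of which 9 of the 10 listed were present. They summed to 53.1, 47.1 and 305 CPM in C6KO iWAT and 20.3, 14.2 and 61.1 CPM in WT iWAT. By estimate 8 of 8 tested were higher in C6KO, where 46.2% of all genes were lower. The part of either list in the iWAT result was not tested.

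**Figure D3:**
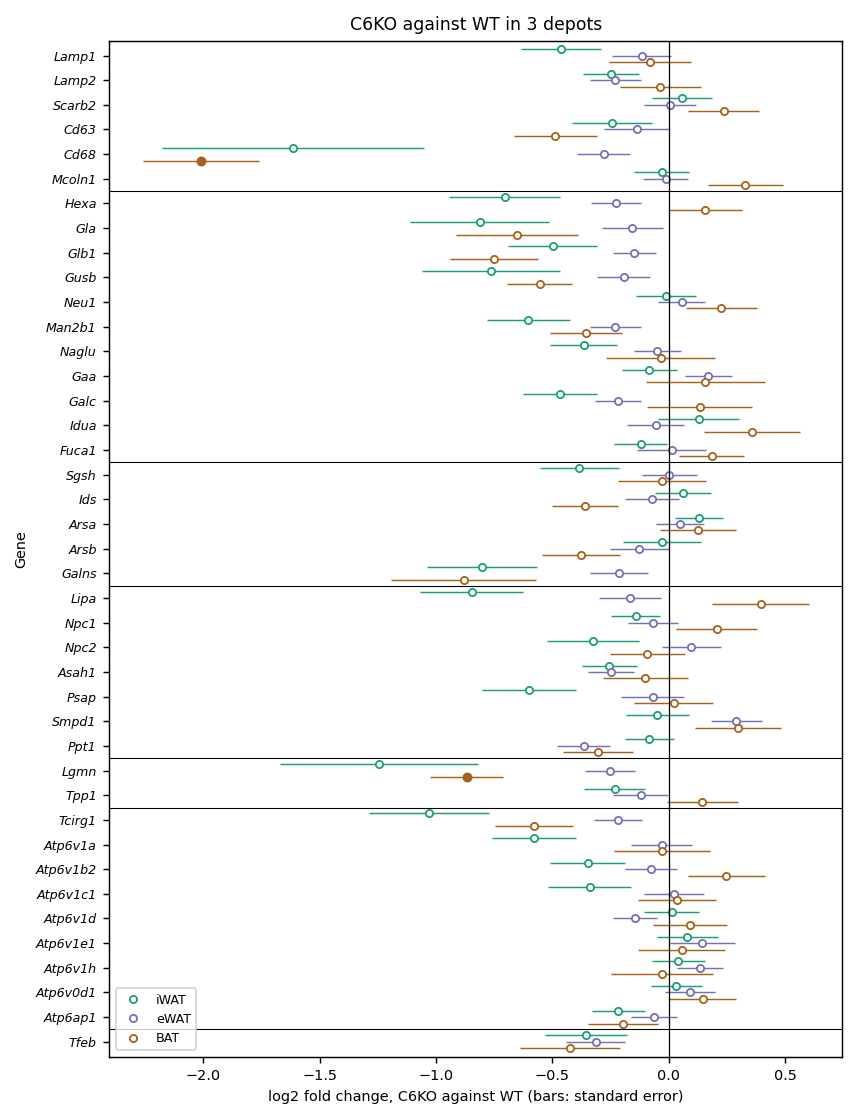
Points give the log2 fold change of C6KO against WT for each of the 41 genes in iWAT (green), eWAT (violet) and BAT (brown), with bars of 1 standard error; filled points were called. Only Cd68 and Lgmn in BAT are filled, eWAT points stay within 0.37 of 0, and iWAT points reach -1.61.

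In eWAT, the depot with the most lysosomal RNA, the estimates for genotype lay within 0.37 of 0 on the log2 scale. With edgeR 0 of 41 genes were called (0.208% of all genes were called lower and 0.537% higher), and DESeq2 also called 0 (1.22% lower and 2.77% higher). At an unadjusted p below 0.05, 5 genes were lower (Cd68, Asah1, Ppt1, Lgmn and Tfeb) and 1 was higher (Smpd1), beside 7.82% and 9.81% of all genes. The estimate was lower for 29 of 41 genes, beside 50.9% of all genes, and the median log2 fold change was -0.076 over the 41 genes and -0.006 over all genes. In 12 genes the C6KO libraries lay below all WT libraries and in 2 above them, beside 11.6% of all genes in each direction.

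Ppt1, the thioesterase that removes palmitate from proteins, had 133, 161 and 132 CPM in WT eWAT and 114, 112 and 103 CPM in C6KO eWAT. The genotypes did not overlap, and the log2 fold change of -0.37 (SE 0.11, n = 3 per group, edgeR adjusted p = 0.135) was the lowest estimate in this depot. Asah1 had 245, 266 and 244 CPM in WT and 213, 220.3 and 202 CPM in C6KO, with a log2 fold change of -0.25 (SE 0.10, n = 3 per group, edgeR adjusted p = 0.231). Smpd1 had 69.4, 69.6 and 67.7 CPM in WT and 88.3, 91.4 and 72.5 CPM in C6KO, so every C6KO library was above every WT library, with a log2 fold change of 0.29 (SE 0.11, n = 3 per group, edgeR adjusted p = 0.205). The ceramide-forming enzyme and the ceramide-degrading enzyme thus had estimates of opposite sign in eWAT, and neither was called.

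Cd68 had 925, 791 and 865 CPM in WT eWAT and 698, 741 and 679.8 CPM in C6KO eWAT, without overlap, and a log2 fold change of -0.28 (SE 0.11, n = 3 per group, edgeR adjusted p = 0.237). The difference on the log2 scale was smaller than its estimates of -1.61 in iWAT and -2.01 in BAT, a contrast tested further on. Lgmn had 847, 813 and 822 CPM in WT and 663, 726 and 690.4 CPM in C6KO (log2 fold change -0.25, SE 0.11, n = 3 per group, edgeR adjusted p = 0.262). Tfeb had 43.1, 41.1 and 51.6 CPM in WT and 31.9, 39.4 and 37.5 CPM in C6KO, with a log2 fold change of -0.31 (SE 0.13, n = 3 per group, edgeR adjusted p = 0.242). All 3 genes separated the genotypes, as did Tcirg1, at 383, 355 and 367 CPM in WT and 316, 299 and 332 CPM in C6KO. For Lamp1 (-0.12, SE 0.13) and Lipa (-0.17, SE 0.13) the libraries overlapped. Gaa had 163, 145 and 165 CPM in WT and 177, 168 and 186 CPM in C6KO, with C6KO above WT and a log2 estimate of 0.17 (SE 0.10).

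Macrophage markers also stood lower in C6KO eWAT, at 4597, 6355 and 5774 CPM in sum against 7813, 10152 and 7611 CPM in WT. Of the 20, 19 had a lower estimate, beside 50.9% of all genes, with a median log2 fold change of -0.60. By edgeR 0 of them were called lower (0.208% of all genes), and DESeq2 called 8 lower (1.22% of the genes it tested). The median of the 41 lysosomal genes there was -0.076. Of 8 hepatocyte transcripts tested, 3 rose in C6KO eWAT, beside 0.537% of all genes. Among them was Ttr, a plasma carrier protein, at 3.50 (SE 0.59, edgeR adjusted p = 0.0432). The part of these other cell types in the lysosomal values was not tested.

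In BAT, 2 of the 41 genes fell in C6KO and 0 rose, beside 1.07% and 0.169% of the 13595 genes tested. Estimates were lower for 22 genes and higher for 19, close to the 53.9% of all genes with a lower estimate, and the median log2 fold change was -0.029 over the 41 genes and -0.032 over all genes. In 12 genes C6KO lay below WT without overlap, as in 12.4% of all genes, and in 2 (Scarb2 and Lipa) above it, as in 7.44%. At an unadjusted p below 0.05, 10 genes were lower and 0 higher, beside 8.64% and 4.56% of all genes. For the other 27 genes the genotypes overlapped. Casp6 itself was not called in BAT (edgeR adjusted p = 0.0671), so a gene not called there is not shown to be unchanged.

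Cd68 (mm10 chr11:69664213-69666170, minus strand) had 69.2, 50.9 and 55.5 CPM in WT BAT and 18.9, 9.53 and 14.8 CPM in C6KO BAT, a fall of 4.03-fold without overlap and a log2 fold change of -2.01 (SE 0.25, n = 3 per group, edgeR adjusted p = 0.0096). Lgmn (chr12:102394082-102439813, minus strand) had 145, 107 and 110.4 CPM in WT and 66.7, 60.6 and 69.2 CPM in C6KO, a fall of 1.83-fold with a log2 fold change of -0.87 (SE 0.16, n = 3 per group, edgeR adjusted p = 0.034). DESeq2 called the same 2 genes lower and 0 higher (2.62% and 1.05% of the genes it tested). Lgmn was no longer called in the edgeR fit of all 18 libraries (adjusted p = 0.111) or without any single library other than WT replicate 2, and Cd68 was not called without C6KO replicate 3 (adjusted p = 0.0669). Without WT replicate 2, the library with many muscle transcripts, both were called, beside 1.05% of all genes called lower and 0.24% higher, and in that edgeR fit Cd68 had a log2 fold change of -2.08 (SE 0.26, adjusted p = 0.00612).

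Next by p was Glb1, the beta-galactosidase, with 27.2, 24.2 and 20.4 CPM in WT BAT and 15.6, 13.9 and 12.8 CPM in C6KO BAT, separate in all libraries, and a log2 fold change of -0.75 (SE 0.19, n = 3 per group, edgeR adjusted p = 0.106). Tcirg1 had 40.3, 42.8 and 51.0 CPM in WT and 26.7, 33.3 and 29.0 CPM in C6KO (log2 fold change -0.58, SE 0.17, n = 3 per group, edgeR adjusted p = 0.153). Man2b1 had 77.3, 98.4 and 89.1 CPM in WT and 68.3, 67.9 and 69.9 CPM in C6KO, and an estimate of -0.36 (SE 0.15). These 3 genes were lower in every C6KO library without passing the adjusted threshold within BAT, although Glb1 was called in the edgeR fit of all 18 libraries (log2 fold change -0.76, adjusted p = 0.0207). Lipa had the opposite order, at 388, 223 and 338 CPM in WT and 441, 394 and 397 CPM in C6KO, with C6KO above WT in all libraries and a log2 fold change of 0.39 (SE 0.21, n = 3 per group, edgeR adjusted p = 0.459). Lamp1 had 1021, 729 and 949 CPM in WT and 863, 837 and 821 CPM in C6KO, Gaa 109.7, 189 and 118 CPM and 185, 156 and 123 CPM, and both overlapped. Tfeb had 28.8, 42.2 and 27.6 CPM in WT and 21.1, 25.8 and 26.5 CPM in C6KO, below WT in all libraries, with an estimate of -0.42 (SE 0.22).

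Within BAT the medians of the 6 roles with more than 1 gene ran from -0.36 for sulfatases and proteases to 0.13 for glycosidases. Psap, the most abundant gene, had 2498, 2124 and 2439 CPM in WT BAT and 2344, 2577 and 2175 CPM in C6KO BAT, an estimate of 0.021 (SE 0.17). In iWAT the same gene had 3429.8, 3588 and 3853 CPM in WT and 2001, 2024 and 3117 CPM in C6KO, an estimate of -0.60 (SE 0.20). Macrophage markers in BAT summed to 1355, 1024 and 1109 CPM in WT and 598, 406 and 563 CPM in C6KO. Of the 20, 18 had a lower estimate and 6 were called lower, beside 53.9% and 1.07% of all genes. Among the 6 was Adgre1, the F4/80 antigen, at -1.79 (SE 0.22, edgeR adjusted p = 0.0096). The part of macrophages in the fall of Cd68, itself a macrophage gene, and of Lgmn was not tested.

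**Figure D4:**
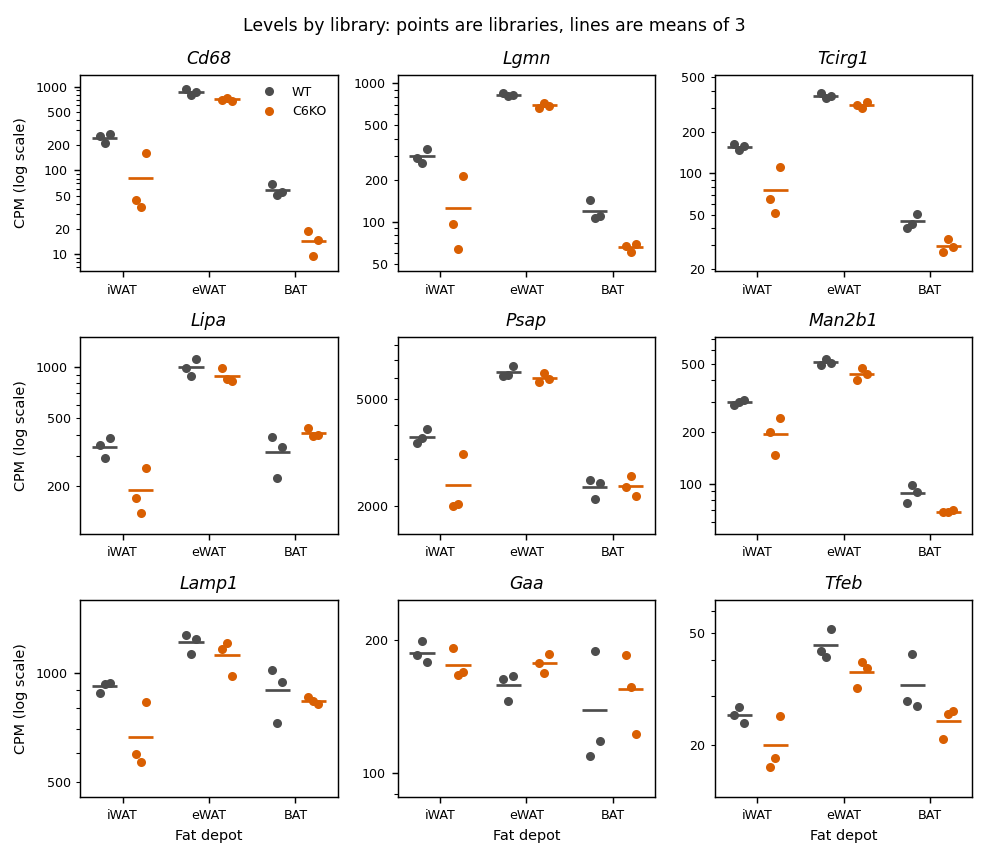
Each panel shows 1 gene: points are libraries, lines are means of 3, grey is WT, orange is C6KO, and the vertical axis is CPM on a log scale that differs between panels. In iWAT 1 orange point, C6KO replicate 3, sits near WT for Cd68, Lgmn and Psap, and in BAT all orange points of Cd68 and Lgmn lie below all grey points.

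**Figure D5:**
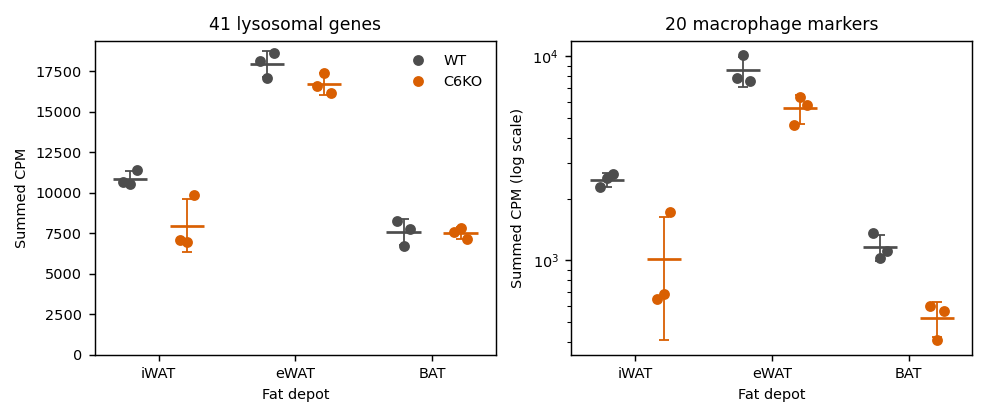
The left panel gives the summed CPM of the 41 lysosomal genes per library on a linear axis and the right panel that of 20 macrophage markers on a log axis; points are libraries, horizontal lines means and bars 1 SD of 3. The macrophage sums of C6KO lie below those of WT in all 3 depots, whereas the lysosomal sums do so without overlap only in iWAT.

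Whether the effect of C6KO differed between depots was tested as the difference of 2 genotype effects in the fit of all 18 libraries. None of the 41 genes was called in any of the 3 contrasts with edgeR. For eWAT minus iWAT, 0.0% of all genes were called in either direction, 5 of the 41 genes were higher and 0 lower at an unadjusted p below 0.05 (3.62% and 1.85% of all genes), and the median was 0.25 over the 41 genes and 0.012 over all genes. For BAT minus iWAT, 0.0693% of all genes were called higher and 0.113% lower, 6 of the 41 were higher and 1 lower at an unadjusted p below 0.05 (3.56% and 6.37% of all genes), and the median was 0.23 against -0.083 over all genes. For BAT minus eWAT, 0.0504% of all genes were called higher and 0.485% lower, 1 of the 41 was higher and 2 lower at an unadjusted p below 0.05 (2.89% and 8.34% of all genes), and the median was 0.003 against -0.080. DESeq2 called 0 of the 41 genes in eWAT minus iWAT (0.0557% of all genes higher, 0.0309% lower), 1, Lipa, higher in BAT minus iWAT (0.491% and 0.768%) and 0 in BAT minus eWAT (0.366% and 2.03%).

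The difference in the effect on Cd68 was 1.33 (SE 0.57, n = 3 per group, edgeR adjusted p = 0.896) for eWAT minus iWAT and -1.74 (SE 0.59, n = 3 per group, edgeR adjusted p = 0.246) for BAT minus eWAT, so the smaller estimate in eWAT was not shown to differ. For Tcirg1 the difference of eWAT minus iWAT was 0.81 (SE 0.28, n = 3 per group, edgeR adjusted p = 0.89). Without C6KO replicate 3 of iWAT, Cd68, Gla, Gusb, Lgmn and Tcirg1 were called in eWAT minus iWAT, beside 1.41% of all genes called higher and 0.0806% lower, and Hexa and Lipa in BAT minus iWAT, beside 0.459% and 0.236%. As within iWAT, these calls show only the dependence on that library.

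Across the 41 genes, estimates in depots that share no library ran in the same general order. The log2 fold changes of C6KO in iWAT and in BAT had Pearson's r = 0.70 and Spearman's rho = 0.49, those in iWAT and eWAT r = 0.56 and rho = 0.61, and those in eWAT and BAT r = 0.53 and rho = 0.56. Cd68, Lgmn and Tcirg1 carried part of this, since r for iWAT and BAT was 0.42 over the other 38 genes. Of the pairs compared, the closest likeness was between the C6KO effect in iWAT and the difference of BAT against eWAT in WT mice, with r = 0.83 and rho = 0.78 over 41 genes and r = 0.76 and rho = 0.73 over the other 38. Genes that were lower in BAT than in eWAT of WT mice also had a lower estimate in C6KO iWAT in 31 of 35 cases. Of the 6 genes that were higher in BAT, 2 did so. Since 33 of the 41 estimates for C6KO iWAT lay below 0, much of the first count follows from that share alone. The corresponding pair for BAT, its C6KO effect and the difference of eWAT against iWAT in WT mice, was weaker. It had r = -0.475 and rho = -0.351, with the same sign in 15 of the 41 genes. No correlation over all tested genes is given here for comparison. The points are genes of 1 organelle and not independent replicates, so these values describe the libraries and carry no p.

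Further lysosomal genes outside the 41 were followed as lists. Over all genes, edgeR called 0.0206%, 0.208% and 1.07% lower in C6KO iWAT, eWAT and BAT, and 0.00688%, 0.537% and 0.169% higher. At an unadjusted p below 0.05, 9.29%, 7.82% and 8.64% were lower and 7.25%, 9.81% and 4.56% higher. DESeq2 called 3.53%, 1.22% and 2.62% of the genes it tested lower and 1.18%, 2.77% and 1.05% higher. A lower estimate was seen in 46.2%, 50.9% and 53.9%. The genotype counts of each list below stand beside these shares. Of 26 other enzymes and cofactors, mainly cathepsins and further hydrolases, 23 had a lower estimate in C6KO iWAT, with a median log2 fold change of -0.27. In eWAT it was 19 of 26 (median -0.13), and BAT again had 19 (median -0.21). With edgeR 0 were called in iWAT and eWAT, where 9 and 6 were lower and 1 and 1 higher at an unadjusted p below 0.05, and 2 fell in BAT. DESeq2 called 2 lower in iWAT, 1 lower in eWAT and 4 lower in BAT. The edgeR calls in BAT were Ctss, cathepsin S of antigen-presenting cells, at -2.27 (SE 0.24, edgeR adjusted p = 0.00432), and Ctsh, cathepsin H, at -1.04 (SE 0.18, edgeR adjusted p = 0.0318). In WT mice 13 of these 26 were called higher in eWAT than in iWAT and 1 (Acp5) lower, beside 12.8% and 12.9% of all genes. In BAT against iWAT 18 were called lower and 1 (Hyal1) higher, beside 18.7% and 20.1%.

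Of 20 other membrane proteins and transporters, edgeR called 3 lower in BAT and 0 in the white depots, where 7 in iWAT and 4 in eWAT were lower and 2 in eWAT higher at an unadjusted p below 0.05. DESeq2 called 3 lower in BAT, 3 lower in iWAT and 0 in eWAT. The edgeR calls were Gpnmb, a glycoprotein of lipid-laden macrophages, at -2.65 (SE 0.27, edgeR adjusted p = 0.00423), Laptm5, a protein of leukocyte lysosomes, at -1.35 (SE 0.24, edgeR adjusted p = 0.034), and Slc11a1, a metal transporter of phagosomes, at -1.16 (SE 0.22, edgeR adjusted p = 0.0449). Of 11 other pump subunits tested, Atp6v0d2, a d2 subunit that marks osteoclasts and lipid-associated macrophages, fell in BAT with a log2 fold change of -4.05 (SE 0.22, edgeR adjusted p = 1.02e-04), and Atp6v0e2 rose in eWAT by 0.77 (SE 0.15, edgeR adjusted p = 0.0491). The d1 form among the 41 genes, Atp6v0d1, had estimates of 0.15 (SE 0.14) in BAT and 0.091 (SE 0.11) in eWAT. The genes of these lists called lower in BAT thus include several known from macrophages, as Cd68 is.

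Estimates for autophagy genes were mostly higher in C6KO. Of 20, 15 had a higher estimate in C6KO iWAT (median 0.075), 16 in eWAT (median 0.11) and 14 in BAT (median 0.11). Over all genes 46.2%, 50.9% and 53.9% had a lower estimate in these depots. The 1 called by edgeR was Map1lc3a, a structural protein of autophagosomes, which rose in eWAT by 0.63 (SE 0.11, edgeR adjusted p = 0.0467). With edgeR 0 of the 12 genes of the Tfeb family and its regulators (11 tested in BAT) were called for genotype, while at an unadjusted p below 0.05 3 were lower in iWAT, 1 was lower in eWAT, and BAT had 1 lower and 1 higher. DESeq2 called 1 of them lower in iWAT and 1 higher in BAT. Of 10 genes of sorting to lysosomes 0 were called by either tool, and 3 were lower in iWAT and 1 higher in eWAT at an unadjusted p below 0.05. Cln3, a membrane protein of the lysosome, was the 1 gene of these lists that edgeR called in a difference between depots, with 1.22 (edgeR adjusted p = 0.0296) for the C6KO effect in BAT minus that in iWAT. In that difference edgeR called 0.0693% of all genes higher. DESeq2 called more genes of these lists. In BAT minus iWAT 2 enzymes and 1 membrane protein were higher, beside 0.491% of the genes it tested. In BAT minus eWAT 1 membrane protein and 1 Tfeb family gene were higher, beside 0.366%. There 1 membrane protein and 1 pump subunit were lower, beside 2.03%.

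Markers of the cells that make up a depot were read beside these genes. Their genotype counts stand beside the shares of all genes given above for the lists. Adipocyte markers had a higher estimate in C6KO for 10 of 10 genes of iWAT, 10 of 10 of eWAT and 8 of 10 of BAT (medians 0.42, 0.66 and 0.16 on the log2 scale), and 2 of them, Plin1 and Lipe, rose in eWAT. Markers of lipid-associated macrophages, a list that shares Atp6v0d2 and Gpnmb with those above, had medians of -1.57, -0.21 and -2.73, and 6 of 10 fell in BAT. Lymphocyte markers varied widely between libraries of a group, since they summed to 7.30, 112 and 11.3 CPM in WT BAT, where replicate 2 is the muscle-rich library, against 6.90, 4.40 and 6.75 CPM in C6KO BAT, and to 30.3, 125 and 152 CPM in WT eWAT against 15.2, 15.1 and 202 CPM in C6KO eWAT. Only 3 of the 10 were tested in BAT. The medians in iWAT, eWAT and BAT were -0.93, -0.43 and -0.003 for the 3 neutrophil markers tested, 0.10, 0.50 and 0.20 for endothelial markers and -0.95, -0.28 and -0.65 for progenitor and fibroblast markers. All 20 macrophage markers had a lower estimate in C6KO iWAT, where edgeR called 0 and DESeq2 called 12 lower. Of the 8 progenitor and fibroblast markers, 7 had a lower estimate there, and edgeR called 0 and DESeq2 3 lower. Lower lysosomal estimates in C6KO iWAT thus stood beside lower macrophage, progenitor and fibroblast estimates and higher adipocyte estimates. The share of each cell type in them was not tested.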

How the data were processed

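RNA was polyA-selected and sequenced on an Illumina NextSeq. The authors aligned reads to mm10 with STAR and counted exon reads per gene with HOMER, keeping 1 transcript per gene; they deposited unnormalised counts, with 1 table per depot. Software versions, the annotation release and use of strand are not given in the sources used here. Counts were tested with edgeR 4.0.16 in R 4.3.3 (TMM, filterByExpr, robust quasi-likelihood test, Benjamini-Hochberg adjustment), for genotype within each depot and for depots and differences of effects over all 18 libraries. CPM used 1 TMM scaling of all libraries. Replicates were separate samples, and no source used here says that each was a separate mouse, so p-values measure the spread between these samples. DESeq2 1.42.0, other scalings, filters, a replicate block and leaving out each library were alternatives. The scripts were tested on simulated data. The 41 genes and all lists were chosen with earlier results of these data known. Genes given in full were those called for genotype, the 3 with the smallest p per depot, the 3 largest called changes per WT depot pair, and Lamp1, Cd68, Tcirg1, Gaa and Tfeb. Other genes named were chosen after their values were seen.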

Additional observations from a re-analysis of the deposited data

Results flagged for a closer look

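Lipa, the lysosomal acid lipase, had genotype estimates of opposite sign in iWAT and BAT. All 3 C6KO libraries lay below all 3 WT libraries in iWAT and above them in BAT. The C6KO effect in BAT minus that in iWAT was 1.227 on the log2 scale (SE 0.301), with an edgeR adjusted p = 0.132 and a DESeq2 adjusted p = 0.0096.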

How the results depend on the processing

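In iWAT 0 of the 41 genes were called lower, but DESeq2 called 5 and the edgeR fit of all 18 libraries called 4, and leaving out 1 library gave 0 to 15, the highest without C6KO replicate 3. In BAT the count of 2 lower was 1 with the replicate block, where Lgmn had an edgeR adjusted p = 0.0687, and 0 to 2 when 1 library was left out. Deviations of same-numbered WT and C6KO samples from their group means had mean correlations of 0.034 (iWAT), 0.096 (eWAT) and -0.358 (BAT). Between 2 depots of 1 genotype the mean was 0.073 for the same number (-0.096 to 0.336). For different numbers it was -0.037 (-0.343 to 0.29). The labels do not say what the numbers mark, and they were read as names only. Between WT depots, the median of eWAT against iWAT (0.62) was 0.65 with DESeq2 or its size factors, 0.76 with total counts, 0.67 with at least 10 counts in every library, and 0.605 to 0.703 with 1 library left out. With total counts or at least 10 counts in every library, 1 gene, Atp6v1d, in place of 3 was called higher in BAT than in iWAT. Without a minimum fold, 4 in place of 2 were called higher in BAT than in eWAT, and with total counts that median was -1.18. Total counts moved the median of all genes to 0.149, -0.131 and -0.262 in the 3 depot comparisons (eWAT against iWAT, BAT against iWAT and BAT against eWAT). In the C6KO effect in BAT minus iWAT, DESeq2 called 1 gene higher, and leaving out 1 library gave 0 to 2 there and 0 to 5 in eWAT minus iWAT. The BAT minus eWAT difference of Gaa (-0.012) was 0.00342 with DESeq2, 0.00404 with its size factors, 0.00868 with total counts and 0.0340 with at least 10 counts in every library. The cause of these changes was not tested. Estimates near 0 changed sign when 1 library was left out. In iWAT Smpd1 ran from -0.190 to 0.0455. In BAT Asah1 ran from -0.216 to 0.101 and Lamp1 from -0.188 to 0.0198. In BAT against iWAT of WT, Lamp1 ran from -0.137 to 0.0962. The eWAT minus iWAT difference of Tfeb ran from -0.0730 to 0.247. In BAT minus iWAT, Cd68 ran from -0.760 to 0.587 and Tfeb from -0.183 to 0.156. In BAT minus eWAT, Gaa ran from -0.159 to 0.273, Lamp1 from -0.109 to 0.123 and Tfeb from -0.222 to 0.115. BAT libraries held the fewest counts (7803108 to 12428683) and so carried the largest counting error.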
